A study of Mus musculus with 10 samples.

Results

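The erythroid and megakaryocyte transcription factors Gata1, Klf1, Tal1, Gfi1b, Nfe2 and Lmo2, together with the erythropoietin receptor gene Epor, were followed in the spleens of proteoglycan (PG)-immunized mice. The 7 genes were matched to probe sets by gene symbol in the probe annotation of the array platform, a step that used no measured value. The group itself was chosen with earlier results of these data known. Each gene was carried by 1 probe set, so that the group made up 7 of the 45037 probe sets on the array. All 7 exceeded the array median on each of the 10 arrays and were among the 23805 probe sets kept for testing.

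Spleen RNA of 10 female BALB/c mice was hybridized to 1 Affymetrix mouse array per mouse, and the values are log2 signals. All mice, arthritic or not, had been immunized intraperitoneally with human cartilage PG in the adjuvant dimethyldioctadecylammonium bromide (DDA), a protocol that provokes an autoimmune arthritis in this strain, and no unimmunized mouse was measured. The labels name 2 old arthritic mice, both aged 9 months, 2 old non-arthritic mice aged 7 and 5 months, 2 young arthritic mice aged 5 and 4 months, and 4 young non-arthritic mice aged 3, 3, 2 and 1 month. The comparison of old with young non-arthritic spleens addresses age, and that of arthritic with non-arthritic spleens addresses disease. Within the old and within the young mice the ages of arthritic and non-arthritic animals did not overlap, the arthritic being older, so that arthritis and age cannot be told apart within an age group. Arthritis was therefore also estimated in a fit that held age in months as a covariate, where the 4 arthritic mice averaged 6.75 months and the 6 non-arthritic mice 3.5 months.

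In mice the spleen makes red cells and platelets throughout life, and this output grows during anaemia, infection and inflammation. Erythropoietin, a kidney hormone, keeps committed red cell precursors alive through its receptor Epor and the kinase Jak2. Gata1 is the zinc-finger factor that drives both the red cell and the megakaryocyte programme. Tal1, a basic helix-loop-helix factor, binds DNA in a complex with Gata1, and the adaptor Lmo2 bridges the proteins of this complex. Klf1 activates globin and red cell membrane genes through CACCC boxes, Gfi1b is a repressor needed by both lineages, and Nfe2 pairs with small Maf proteins and is needed for platelet release.

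The start regions of 4 of the genes are shown because the factors in question are known to bind GATA motifs, CACCC boxes and E-boxes. RefSeq windows of 300 bases, from 250 before to 50 after an annotated start (GRCm38.p6), were at hand for 5 of the 7 genes. Matches to 3 motifs, searched on both strands, are in capitals, and none of them overlapped. The first is the GATA motif (A or T, then GATA, then A or G), the second the box CACCC, and the third the E-box CAGNTG. The windows run 5′ to 3′ on the gene's strand. They lie at chrX:7967861-7968160 for Gata1 (minus strand), chr8:84901732-84902031 for Klf1 (plus strand), chr2:28621933-28622232 for Gfi1b (minus strand) and chr9:21963527-21963826 for Epor (minus strand).
Gata1: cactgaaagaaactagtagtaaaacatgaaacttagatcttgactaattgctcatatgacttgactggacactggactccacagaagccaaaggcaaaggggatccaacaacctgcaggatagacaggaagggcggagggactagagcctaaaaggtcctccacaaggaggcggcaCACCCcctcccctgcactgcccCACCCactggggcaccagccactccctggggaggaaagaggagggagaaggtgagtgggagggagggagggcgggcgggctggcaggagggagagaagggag
Klf1: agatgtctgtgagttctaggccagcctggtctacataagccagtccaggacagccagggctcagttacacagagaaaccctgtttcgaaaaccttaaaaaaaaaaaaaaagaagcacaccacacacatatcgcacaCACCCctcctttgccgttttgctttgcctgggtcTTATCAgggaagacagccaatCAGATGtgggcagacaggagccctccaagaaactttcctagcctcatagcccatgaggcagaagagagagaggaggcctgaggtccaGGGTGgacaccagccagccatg
Gfi1b: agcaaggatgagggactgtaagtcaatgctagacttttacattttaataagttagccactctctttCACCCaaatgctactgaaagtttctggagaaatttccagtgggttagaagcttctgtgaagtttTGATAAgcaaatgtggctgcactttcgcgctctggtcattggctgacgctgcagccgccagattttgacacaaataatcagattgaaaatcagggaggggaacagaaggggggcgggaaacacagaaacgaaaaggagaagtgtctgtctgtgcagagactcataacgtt
Epor: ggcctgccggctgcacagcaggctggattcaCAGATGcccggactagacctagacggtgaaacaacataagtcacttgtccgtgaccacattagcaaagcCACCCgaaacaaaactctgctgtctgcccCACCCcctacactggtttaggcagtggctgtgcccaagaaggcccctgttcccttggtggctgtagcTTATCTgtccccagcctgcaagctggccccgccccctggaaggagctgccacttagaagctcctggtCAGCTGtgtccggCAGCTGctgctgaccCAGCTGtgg
The Epor window held a GATA match (TTATCT) 54 bases before the start, a pair of CACCC boxes 150 and 121 bases before it, and 4 E-boxes, of which 3 lay just after the start. In the Klf1 window a GATA match (TTATCA) lay 80 bases before the start and an E-box 59 bases before it. The Gfi1b window held TGATAA 120 bases before the start and 1 CACCC box. The Gata1 window, which starts inside the annotated gene span, held 2 CACCC boxes, 74 and 52 bases before the start, and no match to the GATA motif as written. Tal1 had 2 annotated starts, and 1 of its windows (chr4:115056176-115056475, plus strand) held 1 match to each motif while the other held none. Of the 6 windows, 4 held a GATA match, against 29.8% of all 32851 RefSeq windows of this length, 5 held CACCC, against 57.5%, and 3 held an E-box, against 51.4%. These matches describe the letters of the windows, not binding.

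Across the series the arrays had similar medians, between 6.88 and 6.96 on the log2 scale. The B cell list, with 9 of 10 genes kept, averaged log2 signals of 11.28 to 11.52 in arthritic and 11.21 to 11.53 in non-arthritic spleens. Red cell precursors are a minor part of a spleen, and in a piece of whole tissue a lower signal from fewer cells of a type and from less RNA per cell cannot be told apart.

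Gata1 (chrX:7959260-7976663) had log2 signals of 11.44 and 11.50 in old arthritic and 10.97 and 10.95 in old non-arthritic spleens. In young mice it had 11.21 and 11.31 in arthritic and 10.88, 10.39, 11.11 and 10.75 in non-arthritic spleens. Every arthritic mouse thus lay above every non-arthritic mouse, and the lowest arthritic value exceeded the highest non-arthritic one by a narrow margin. The difference was 0.51 ± 0.19 (SE), or 1.43-fold, in old mice and 0.48 ± 0.17 in young mice, and neither passed the test across all probe sets (limma, adjusted p = 0.207 and 0.199). At equal age it was 0.41, with a 95% confidence interval of 0.07 to 0.75 and an adjusted p of 0.154.

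Klf1 (chr8:84901982-84905291) had 12.81 and 12.78 in old arthritic spleens, the highest values of the series for this gene, against 12.52 and 12.45 in old non-arthritic spleens. Young arthritic spleens had 12.42 and 12.47, and young non-arthritic spleens 12.35, 11.68, 12.45 and 11.99. Here the young arthritic mice did not stand apart from the young non-arthritic mice, whose spread was 0.76. The differences between arthritic and non-arthritic mice were 0.31 ± 0.22 in old and 0.33 ± 0.19 in young mice (adjusted p = 0.452 and 0.373). Of the 7 genes Klf1 showed the largest difference of old minus young non-arthritic spleens, 0.37 ± 0.19 (adjusted p = 0.997), and the steepest slope, 0.08 per month (95% confidence interval 0.01 to 0.15, adjusted p = 0.486). At equal age the arthritic minus non-arthritic difference was 0.13 ± 0.17 (adjusted p = 0.681), the smallest of the 7.

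Tal1 (chr4:115056426-115071755) had 12.16 and 11.91 in old arthritic and 11.74 and 11.67 in old non-arthritic spleens. In young mice it had 11.83 and 11.81 in arthritic and 11.54, 11.18, 11.89 and 11.22 in non-arthritic spleens. Young non-arthritic replicate 3 exceeded both young arthritic mice. The differences of 0.33 ± 0.21 in old and 0.37 ± 0.18 in young mice did not pass the test (adjusted p = 0.408 and 0.321).

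Its adaptor Lmo2 (chr2:103957903-103981878) varied the least of the 7 genes, within 0.48 over all mice. Signals were 12.63 and 12.64 in old arthritic against 12.47 and 12.46 in old non-arthritic spleens, and 12.50 and 12.66 in young arthritic against 12.43, 12.18, 12.41 and 12.19 in young non-arthritic spleens. As with Gata1, all 4 arthritic mice lay above all 6 non-arthritic mice. The differences were 0.17 ± 0.11 in old and 0.28 ± 0.10 in young mice (adjusted p = 0.432 and 0.208).

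Gfi1b (chr2:28609450-28621982) had 11.09 and 11.22 in old arthritic and 10.77 in each of the old non-arthritic spleens, a difference of 0.38 ± 0.17 (adjusted p = 0.264). Young arthritic spleens had 10.95 and 10.92, which overlapped with the 10.78, 10.34, 10.94 and 10.65 of young non-arthritic spleens. There the difference was 0.25 ± 0.15 (adjusted p = 0.374). Gfi1b also showed the smallest difference of old minus young non-arthritic spleens, 0.09 ± 0.15.

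Nfe2 (chr15:103248212-103258403) had its highest signal in a young mouse. It had 11.86 and 11.94 in old arthritic and 11.59 and 11.58 in old non-arthritic spleens, and 11.67 and 12.18 in young arthritic against 11.62, 11.02, 11.88 and 11.10 in young non-arthritic spleens. The gap between the young arthritic mice, 0.50, was nearly as wide as the mean difference of 0.52 ± 0.24 between young arthritic and young non-arthritic mice (adjusted p = 0.287). In old mice the difference was 0.31 ± 0.28 (adjusted p = 0.554). Without young arthritic replicate 2 the young difference was 0.27.

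Epor (chr9:21958897-21963576) had 10.94 and 10.77 in old arthritic against 10.55 and 10.40 in old non-arthritic spleens. Young arthritic spleens had 10.50 and 10.59, which overlapped with the 10.36, 9.93, 10.58 and 10.21 of young non-arthritic spleens. The differences were 0.38 ± 0.18 in old and 0.28 ± 0.16 in young mice (adjusted p = 0.305 and 0.376). As for Gata1, Klf1, Tal1 and Gfi1b, the highest 2 of the 10 values of the receptor were those of the old arthritic mice.

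**Figure D1:**
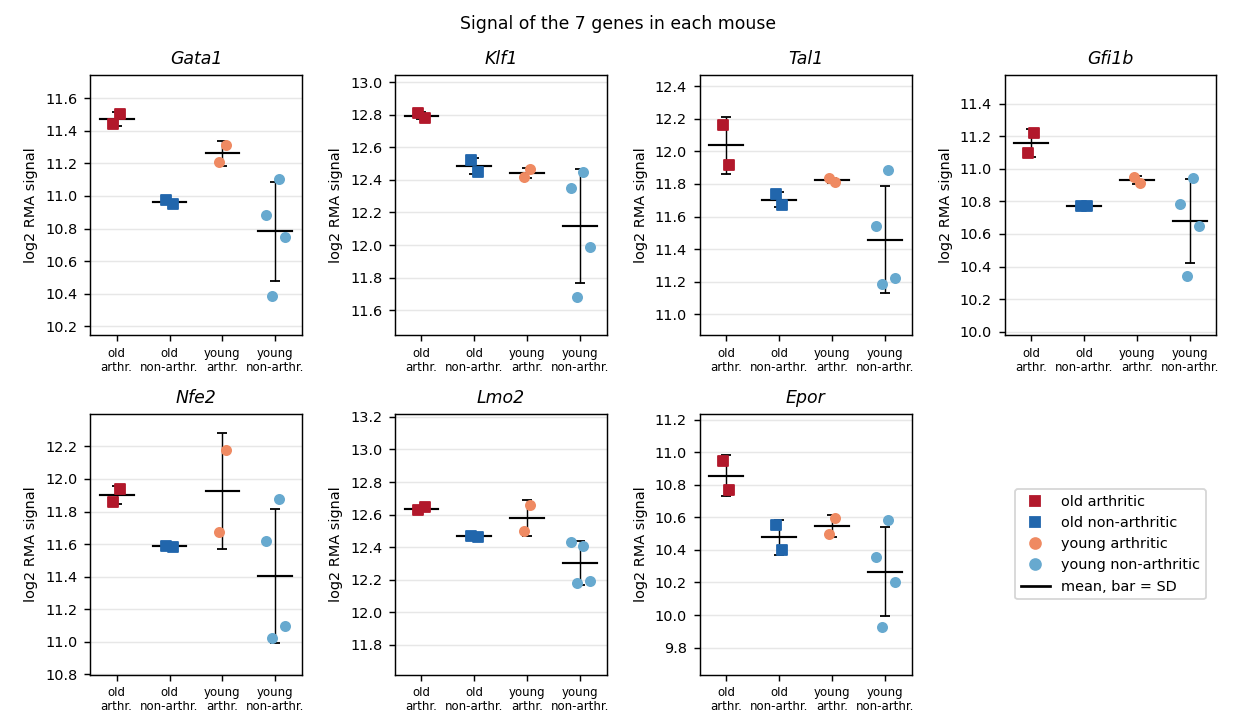
Log2 RMA signal (y axis) of each gene in each mouse, with the group mean and SD, for 2 arthritic and 2 non-arthritic old mice and for 2 arthritic and 4 non-arthritic young mice; every panel spans 1.6 log2 units. Old arthritic mice lay above old non-arthritic mice for all 7 genes, and the young non-arthritic mice were widely spread.

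No gene of the 7 passed an adjusted p of 0.05 in any of the 7 comparisons fitted with limma across the 23805 probe sets. In the F test of any difference among the 4 groups, where 0.765% of all probe sets were called, adjusted p ran from 0.122 for Gata1 to 0.343 for Nfe2, and 5 of the 7 had an unadjusted p under 0.05, as had 23.2% of all probe sets. The called share of all probe sets was 0.0714% for arthritis in old mice, 0.311% for arthritis in young mice, 2.26% for arthritis at equal age and 0.0042% for age in months. It was 0% for age among the non-arthritic and 0% for the old minus young difference in the effect of arthritis, where 759 and 737 probe sets had an unadjusted p under 0.05. With 0 of 7 genes called against such shares, the calls do not set these genes apart from the array as a whole.

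In the main fits the direction of the arthritis differences was the same throughout. All 7 genes were higher in arthritic than in non-arthritic mice among the old (median difference 0.33), among the young (0.33) and at equal age (0.22), where the medians of all kept probe sets were 0.05, 0.09 and 0.09. Under the alternatives other than removal of 1 mouse, the lowest equal-age values were -0.025 for Klf1, 0.008 for Lmo2, 0.055 for Epor and 0.056 for Tal1. They were 0.10 for Gfi1b, 0.22 for Nfe2 and 0.26 for Gata1. Unadjusted p-values under 0.05 belonged to Gata1 (0.0251) and Gfi1b (0.0479) in old mice, to Gata1 (0.0176) and Lmo2 (0.0203) in young mice, and to Gata1 at equal age (0.0233). Over all probe sets the shares with an unadjusted p under 0.05 were 18.6%, 18.2% and 22.9% in these comparisons. The 7 genes varied together across mice and do not count as 7 separate observations.

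For 7 of the 7 genes both old arthritic mice lay above both old non-arthritic mice, as they did for 35.3% of all probe sets. Both young arthritic mice lay above all 4 young non-arthritic mice for 2 of the 7, Gata1 and Lmo2, and for 25.6% of all probe sets. The same 2 genes were the ones with every arthritic mouse above every non-arthritic mouse, an order held by 10.4% of all probe sets.

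Between old and young non-arthritic mice all 7 genes were higher in the old, by 0.09 to 0.37 with a median of 0.18 (0.10 without young non-arthritic replicate 2), while the median of all kept probe sets was -0.02. Each adjusted p was 0.997. The effect of arthritis in old mice minus that in young mice ran from -0.21 for Nfe2 to 0.13 for Gfi1b, with an adjusted p of 1 for each gene. For Nfe2 the 95% confidence interval of that difference ran from -1.03 to 0.61, which spans sizeable differences in either direction.

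**Figure D2:**
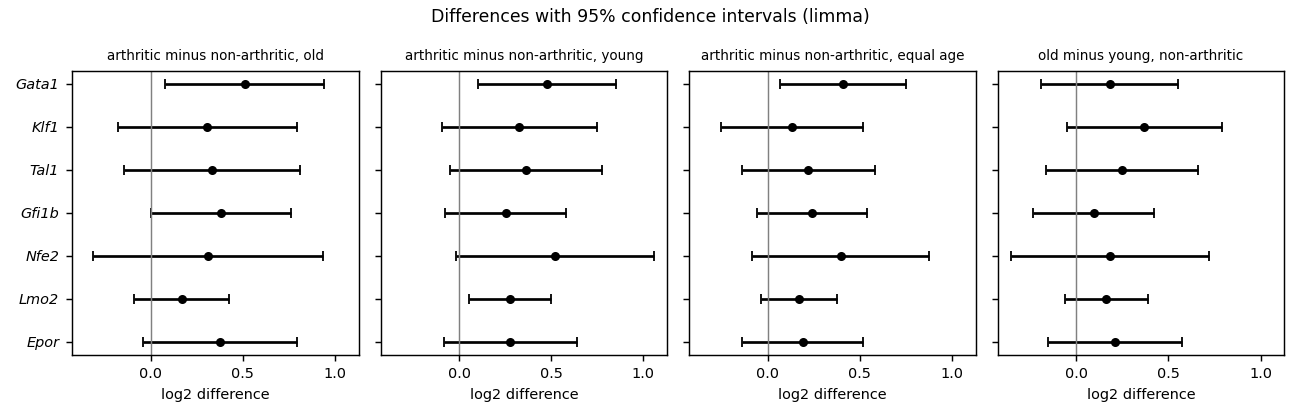
Log2 differences (x axis) of each gene with 95% confidence intervals from limma, for arthritis in the old, in the young and at equal age (arthritic minus non-arthritic) and for age (old minus young, non-arthritic). All points lie above 0, and only Gata1 has an interval above 0 in all 3 comparisons of arthritis, with no adjustment for the number of probe sets.

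What the genes shared was their course over the mice. Young non-arthritic replicate 2 (3 months) had the lowest signal of the 10 mice for all 7 genes, on average 0.55 log2 units below the gene means, and young non-arthritic replicate 4 (1 month) was next with -0.35. Old arthritic replicates 1 and 2 were the highest on average, with 0.34 and 0.31, followed by young arthritic replicate 2 with 0.20. The remaining 5 mice lay between -0.09 and 0.10, young non-arthritic replicate 3 being the highest of these. The low mice were thus not the youngest alone, since the 2-month-old replicate 3 exceeded both 3-month-old mice of its group.

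Over the 10 mice the 21 pairs of genes correlated with a Pearson r of 0.833 (Nfe2 and Epor) to 0.976 (Gata1 and Gfi1b), median 0.913. All 21 pairs passed a two-sided permutation test of r (100000 resamples, Benjamini-Hochberg adjusted over the 21 pairs, highest p = 0.00459). Spearman's rho ran from 0.636 (Klf1 and Nfe2) to 0.952 (Gata1 and Epor), and 20 of 21 pairs passed its permutation test (highest adjusted p = 0.0537). Without the 2 mice farthest from the median of the first gene of a pair, r had a median of 0.802 and a highest value of 0.947. It was 0.347 for Klf1 and Nfe2, whose relation therefore rests on those mice. Lower values than over all 10 mice were also left for Tal1 and Nfe2 (0.497), Nfe2 and Epor (0.531) and Tal1 and Lmo2 (0.588). The genes had been taken as a group with earlier results of these data known, so that the count of pairs is not independent support for their going together.

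Within the 6 non-arthritic mice r ran from 0.777 to 0.989, with 19 of 21 pairs passing an exact permutation test after adjustment, while rho passed for 4. After each group mean was subtracted, r over all 10 mice ran from 0.719 to 0.973. Inside the pairs of arthritic mice the genes split. Klf1, Tal1 and Epor were lower in old arthritic replicate 2 than in replicate 1 and the other 4 genes higher, and Tal1 and Gfi1b were lower in young arthritic replicate 2 than in replicate 1 and the other 5 higher. Without young non-arthritic replicate 2, the lowest mouse, r had a median of 0.853 and all 21 pairs still passed. The first principal component of the standardised signals held 91.9% of the variance of the 7 genes, and the second held 3.77%.

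Departures from the common course were few and small. Relative to the mean of the other 6 genes in the same mouse, Nfe2 was 0.39 higher in young arthritic replicate 2 and 0.23 lower in young non-arthritic replicate 4. Lmo2 was 0.32 higher in young non-arthritic replicate 2 and 0.20 lower in old arthritic replicate 1, as its narrow range implies. The other 5 genes stayed between -0.18 and 0.18 of the others in every mouse. Klf1 stood 0.14 and 0.12 above the others in the old non-arthritic mice and 0.14 below them in young arthritic replicate 2, where Nfe2 was high.

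**Figure D3:**
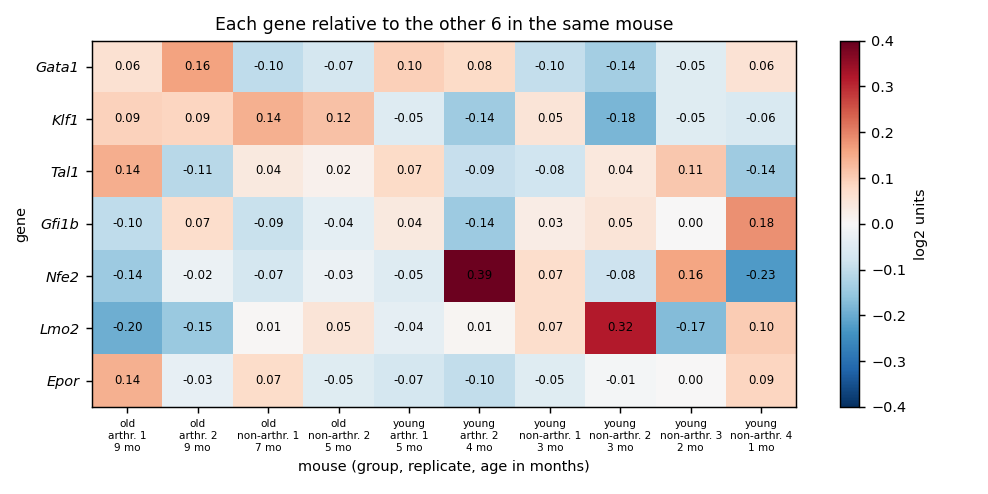
Log2 signal of each gene (rows) minus the mean of the other 6 genes in the same mouse (columns, with age in months), after each gene was centred on its own mean. The largest values are 0.39 for Nfe2 in young arthritic replicate 2 and 0.32 for Lmo2 in young non-arthritic replicate 2.

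Genes whose course was most like the mean of the 7 were sought among 11863 other genes, as a description over the 10 mice. The 10 highest were Anln (r = 0.994), Ccnb2 (0.990), Gypc (0.988), Tpx2 (0.988), Gpsm2 (0.988), Diaph3 (0.986), Cdca3 (0.986), Carhsp1 (0.986), Aqp1 (0.983) and Cldn13 (0.983). Anln builds the cleavage furrow of dividing cells, Ccnb2 is a mitotic cyclin and Tpx2 a spindle protein, whereas Gypc is a glycophorin and Aqp1 the water channel of the red cell membrane. An r of 0.9 or more was reached by 2.15% of the other genes, and the median r was 0.118.

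Each gene had neighbours of its own. Klf1 was closest to Blvrb (r = 0.996), Tspan33 (0.990) and Ermap (0.990), genes of maturing red cells. Gfi1b was closest to Kntc1 (0.992), Cdt1 (0.980) and Gata1 (0.976), and Gata1 to Gfi1b, Anln (0.976) and Cdca3 (0.975). Cdt1 licenses replication origins and Kntc1 serves the spindle checkpoint. Lmo2 was closest to Parpbp (0.988), Kif11 (0.978) and Gypc (0.970), and Epor to the helicase gene Blm (0.989), Carhsp1 (0.980) and the cyclin gene Ccnf (0.973). Tal1 was closest to Map2k3 (0.967), Fbxo42 (0.963) and Top2a (0.961). Nfe2 had a different set, with Stradb (0.971), Fam53b (0.971) and Mxi1 (0.970), and its highest-ranked partner among the 7 was Lmo2, at place 41 of all genes.

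The gene lists set beside the 7 differed in how closely they followed them. The 14 kept cell cycle genes followed the mean of the 7 with r = 0.996 (rho = 0.976), and 11 of them reached 0.9 singly. Without young non-arthritic replicate 2 that r was 0.993 and within the non-arthritic mice 0.998. The mitotic kinase Aurkb (0.981), the survivin gene Birc5 (0.983) and the topoisomerase Top2a (0.972) were among the closest, and Mki67 (0.826) was the least close. None of the 14 was called for arthritis, although 5 in old and 8 in young mice had an unadjusted p under 0.05, beside 18.6% and 18.2% of all probe sets. The median difference was 0.43 in old and 0.41 in young mice, where the medians of all kept probe sets were 0.05 and 0.09. Proliferating cells of every lineage express these genes, and the source of their RNA was not measured.

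Red cell genes, among them known targets of Gata1 and Klf1, also went with the 7 genes. For 12 of 22 globin and heme synthesis genes kept, the list mean had r = 0.971 with the mean of the 7, and for 26 of 30 red cell membrane and other erythroid genes r was 0.961. Hbb-b2 was the only globin gene kept and had the lowest r of the 12, 0.745 (0.486 without young non-arthritic replicate 2). Every one of the 12 was higher in arthritic mice of both ages, with medians of 0.28 in old and 0.40 in young mice. Without young non-arthritic replicate 2 the median in young mice was 0.21. At equal age the median of the 12 was also 0.21. All 12 were also higher in old than in young non-arthritic mice, with a median of 0.31. None was called, and for arthritis 2 in old and 3 in young mice had an unadjusted p under 0.05, beside 18.6% and 18.2% of all probe sets. Cpox, of the heme pathway, differed by 0.64 in old mice (adjusted p = 0.227), and Alad, of the same pathway, by 0.93 in young mice (adjusted p = 0.247). Among the membrane and other genes the carbonic anhydrase Car1 differed by 0.61 in old and 0.43 in young mice (adjusted p = 0.121 and 0.178). Of these genes 0 of 26 were called, and 1 in old and 3 in young mice had an unadjusted p under 0.05, beside the same shares of all probe sets. The glucose transporter Slc2a1 had the lowest r with the 7 genes, 0.063, while 19 of the 26 reached 0.9.

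Megakaryocyte and platelet genes, among them targets of Gata1 and Nfe2 in the other lineage, followed the 7 less closely over the 10 mice. For 22 of 24 genes the list mean had r = 0.341 with the mean of the 7 (rho = 0.345), and no gene of the list exceeded 0.634 (Selp). With group means subtracted, r was 0.759 for this list, against 0.990 for the cell cycle list. For old minus young non-arthritic mice the 7 genes had a median difference of 0.18 and these 22 genes one of -0.37, all 22 being lower in the old. In that comparison 0 were called but 9 had an unadjusted p under 0.05, beside 3.19% of all probe sets. The median arthritis difference of the 22 was 0.27 in old and 0.52 in young mice, where the 7 genes had 0.33 in each. None was called there, and 3 in old and 19 in young mice had an unadjusted p under 0.05, beside 18.6% and 18.2% of all probe sets. Arthritic mice had higher values at equal age for all 22, with a median of 0.66. There 21 had an unadjusted p under 0.05 and 2 were called, beside 22.9% and 2.26% of all probe sets. The called genes were the tetraspanin Cd9 (0.58, adjusted p = 0.0338) and the platelet glycoprotein Gp5 (0.88, adjusted p = 0.0392). The von Willebrand factor gene Vwf (0.94, adjusted p = 0.0507) and the integrin Itga2b (0.67, adjusted p = 0.0511) lay just outside. The list mean was 11.01 to 11.31 in young arthritic spleens, above the 10.52 to 10.66 of old arthritic spleens, whereas Gata1, Klf1, Tal1, Gfi1b and Epor had their highest 2 values in the old arthritic mice. Nfe2 and Lmo2 peaked in young arthritic replicate 2, as did the megakaryocyte list. That mouse also had the highest mean of the neutrophil, mast cell and basophil, eosinophil, macrophage, partner and receptor signalling lists described below. The shared peak is therefore not particular to megakaryocyte genes.

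**Figure D4:**
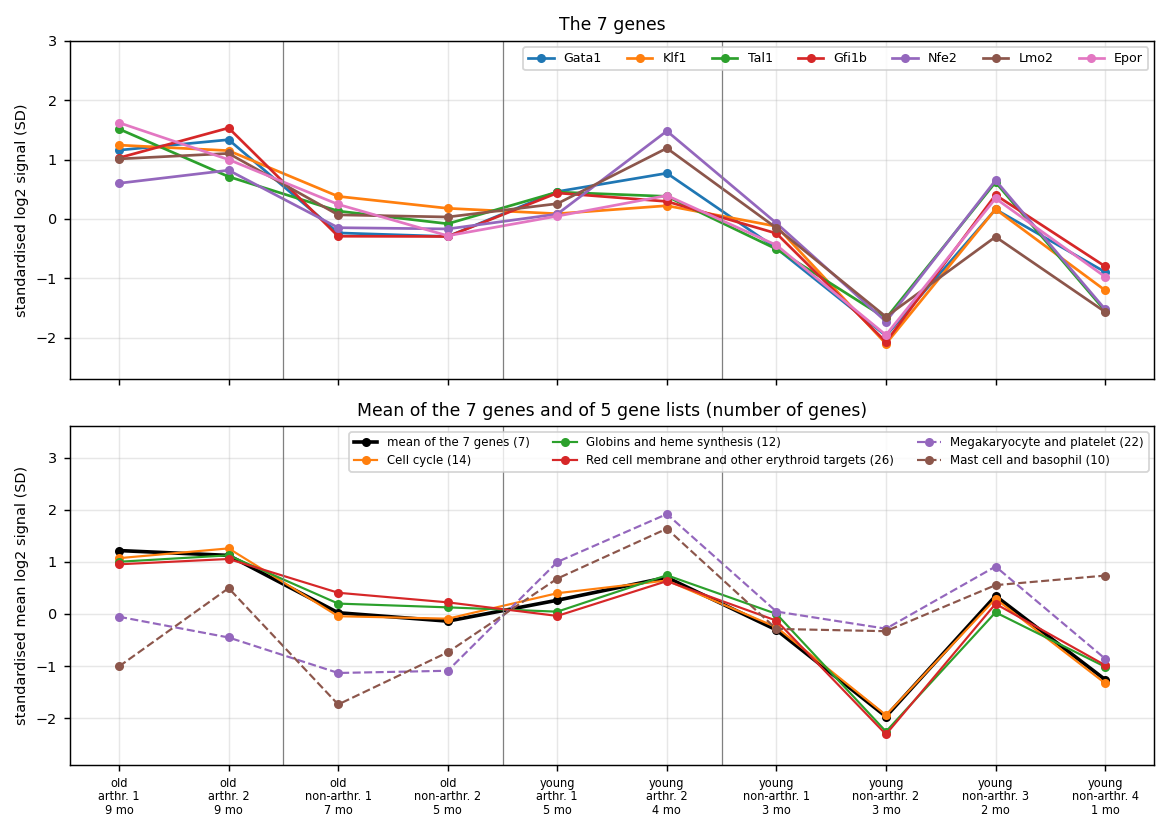
Standardised log2 signal (y axis, in SD over the 10 mice) of the 7 genes (top) and of their mean beside the means of 5 gene lists (bottom) in each mouse; lines join mice only to guide the eye. The 7 genes, the cell cycle list (r = 0.996) and both erythroid lists (r = 0.971 and 0.961) follow each other, whereas the megakaryocyte (r = 0.341) and mast cell (r = 0.079) lists follow them less closely.

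The proteins that work with the factors were mixed. Of 25 partners and cofactors, Sox6 (r = 0.974), a factor that silences embryonic globin genes, and E2f2 (0.939), a cell cycle factor of late erythroblasts, followed the mean of the 7. Next came Zfpm1 (0.850), the Gata1 cofactor also known as Fog1, and Lyl1 (0.755), a relative of Tal1. Ldb1, which holds the Tal1 and Lmo2 complex together, had -0.213, Runx1 had -0.543 and its partner Cbfb -0.829. Fli1 (0.010), Gata2 (0.023) and Spi1 (0.088) were near 0, although Spi1 had 0.577 without young non-arthritic replicate 2. All 25 were higher in arthritic mice at equal age, with a median of 0.20 beside 0.09 for all probe sets. Of these 1 was called, beside 2.26% of all probe sets, namely Myb, a factor of progenitor cells (0.47, adjusted p = 0.0439).

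Downstream of the receptor the picture was weaker. For 17 of 20 genes of erythropoietin receptor signalling the list mean had r = 0.298 with the mean of the 7 and -0.422 within the non-arthritic mice. Bcl2l1 (r = 0.732), which encodes a survival protein of erythroblasts, Pim1 (0.725) and Cish (0.612), a feedback inhibitor, were the closest, whereas Stat5b (-0.555) and Pik3r1 (-0.559) went the other way. None was called, and 1 in old mice and 4 in young mice had an unadjusted p under 0.05, beside 18.6% and 18.2% of all probe sets. Osm, a target of Stat5 that other immune cells also make, differed by 0.42 in old mice (adjusted p = 0.112) and by 0.33 at equal age (adjusted p = 0.0742), and Jak2 by 0.22 at equal age (adjusted p = 0.154).

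Gata1 and Tal1 are also active in mast cells, Gata1 in eosinophils and basophils, and Lmo2 and Tal1 in endothelium. The mast cell and basophil list, with 10 of 14 genes kept, had r = 0.079 with the mean of the 7. Its mean was 8.13 to 9.09 in arthritic and 7.86 to 8.76 in non-arthritic spleens. At equal age 2 of its 10 genes were called, both as higher, beside 2.26% of all probe sets called in either direction. They were the IgE receptor chain Fcer1a (0.91, adjusted p = 0.0237) and the carboxypeptidase Cpa3 (0.95, adjusted p = 0.0485). The eosinophil list (5 of 9 kept, r = 0.208) and the endothelium list (16 of 16 kept, r = -0.283) had no called gene. The part of these cells in the signals of the 7 genes was not tested.

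Markers of other cell types were measured on the same arrays. The neutrophil list averaged 12.35 to 13.03 in arthritic and 11.42 to 12.57 in non-arthritic spleens, and its r with the 7 genes was 0.419. Its median arthritis difference was 1.23 in old mice, beside 0.05 for all kept probe sets. There 0 of 14 genes were called and 12 had an unadjusted p under 0.05, beside 18.6% of all probe sets. The plasma cell list averaged 10.91 to 11.84 in arthritic and 10.77 to 10.94 in non-arthritic spleens (r = 0.482). The T cell list ran against the 7 genes with r = -0.743, and averaged 9.48 to 9.89 in arthritic and 9.62 to 10.06 in non-arthritic spleens. The B cell (r = -0.434), macrophage (-0.074) and capsule, fat and pancreas (-0.504) lists lay between these. Their part in the signals of the 7 genes was not tested, and correlations of list means share the same 10 arrays.

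The called genes of the lists depended on single mice and on the settings. Myb, Gp5, Cd9, Fcer1a and Cpa3 each lost their call at equal age without old non-arthritic replicate 1 or 2 or without young arthritic replicate 1 or 2, and some of them without other mice, the highest adjusted p being 0.252. All 5 calls were also lost with log2 of age in place of age in months (adjusted p = 0.0524 to 0.103) and with the replicate number as a block (adjusted p = 0.0559 to 0.0857), and all but that of Fcer1a with quantile normalization again. For the 7 genes, leaving out young non-arthritic replicate 2 brought the arthritis difference in young mice to 0.35 for Gata1, 0.18 for Klf1, 0.14 for Gfi1b and 0.16 for Epor. It brought the old minus young difference in non-arthritic mice to 0.05 for Gata1, 0.22 for Klf1, 0.15 for Tal1, -0.02 for Gfi1b, 0.06 for Nfe2 and 0.10 for Epor, and the median of the 7 to 0.10. Leaving out young non-arthritic replicate 3 instead gave 0.29 for Gata1, 0.39 for Tal1, 0.18 for Gfi1b and 0.34 for Nfe2. Nfe2 had 0.08 without young non-arthritic replicate 4, and Epor 0.13 without old non-arthritic replicate 1. At equal age Klf1 had 0.08 when young arthritic replicate 2 was left out and 0.05 when young non-arthritic replicate 2 was, and Tal1 in old mice 0.21 without old arthritic replicate 1.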

How the data were processed

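The authors deposited log2 signals per probe set of an Affymetrix mouse array, which the submitters' processing notes credit to RMA, with no version stated in the sources used here. Of 45101 rows, 64 control rows were left out. Genes were named through the platform annotation (34945 probe sets with 1 symbol, 932 with several, 9160 with none). Probe sets above the array median in at least 2 arrays were kept (23805, for 11870 genes), and the kept probe set of highest mean represented a gene. The functions lmFit and eBayes of limma 3.58.1 (R 4.3.3) fitted linear models over all kept probe sets with Benjamini-Hochberg adjustment and a threshold of 0.05, once with the 4 group means and once with arthritis and age in months. Separate mice were the replicates, so that p-values reflect only the spread among these animals, and the number of arrays limits the precision. Correlations used permutation tests (100000 resamples, or exact within the 6 non-arthritic mice). The fit was tested on simulated data. The 7 genes and the 15 lists (207 of 247 genes kept; Gata2 and Kit stand on 2 lists) were chosen with earlier results of these data known. From each list up to 4 genes with the smallest p in the comparison described were named, as were genes at the ends of the order of r, which were picked after their values were seen. The labels do not say at which point the age was taken, and the design text gives other age limits than the sample labels. The array experiment has no methods in the paper. Alternatives covered the filter, normalization, spread estimate, array weights, replicate block, probe set choice, scale of age, the arrays fitted and the removal of each array. Promoter windows and gene positions are from RefSeq (GRCm38.p6). Figures were drawn with matplotlib 3.10.9.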

Additional observations from a re-analysis of the deposited data

How the results depend on the processing

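No gene of the 7 was called in any comparison under any alternative, except Gata1 at equal age with array weights (0.37, adjusted p = 0.0472), where 1 of the 7 was called beside 20.4% of all probe sets. Over all alternatives its adjusted p at equal age was otherwise above 0.05, and without each mouse in turn, with the spread of an arm left with 1 mouse borrowed from the other arms, it ran from 0.0973 to 0.463. All 21 pairs were called without each mouse in turn and with each array centred on its median. Of the values of single genes, 858 stayed on the same side of 0 and of the threshold, 1 passed the threshold and 23 changed sign, none of them called, and the cause was not tested. Quantile normalization again gave 0.029 for Klf1 and 0.0086 for Tal1 in the difference between the arthritis effects, and -0.025 for Klf1 at equal age. Without each mouse in turn, that difference ran from -0.075 to 0.16 for Gata1, -0.13 to 0.13 for Klf1, -0.17 to 0.09 for Tal1, -0.46 to 0.043 for Nfe2 and -0.0043 to 0.21 for Epor. The age difference of Gfi1b ran from -0.020 to 0.18, and the slope of Nfe2 from -0.011 to 0.049 per month. Without old arthritic replicate 2 and young non-arthritic replicate 2, a choice made after seeing the data, Gfi1b had -0.020 for age, and Klf1 0.14, Tal1 0.18 and Epor 0.303 for the difference between effects. The labels do not state that equal replicate numbers pair the mice. Correlations of same-numbered deviations ran from -0.525 to 0.356. They cannot decide on pairing, since the 2 deviations of a group of 2 mice mirror each other. With the number as a replicate block 0 of the 7 were called, the difference between effects was -0.11 for Gata1 and -0.026 for Epor, and all probe sets called at equal age numbered 29 in place of 538. Leaving out each array moved that count of 538 to between 0 and 872.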
